A study of Sus scrofa with 13 samples.

Results

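The genes of the proteasome were followed in messenger RNA from pools of pig embryos. They were taken as the rows of the deposited gene table whose symbol starts with PSM, a letter from A to G and a number, and 49 of 28232 genes met this rule. PSMC3IP, a recombination factor of meiosis, met it by its name only and is described apart. The other 48 were 19 core genes (PSMA and PSMB), 20 cap genes (PSMC and PSMD) and 9 genes of activators, an inhibitor and chaperones (PSME, PSMF and PSMG). The study sequenced 5 groups. Embryos from in vitro fertilisation (IVF) were taken at the 4-cell stage, as blastocysts and as hatched blastocysts, with 3 libraries a group, and embryos grown in vivo as blastocysts and as hatched blastocysts, with 2 libraries a group. At the blastocyst stage a cavity filled with fluid has formed, and on hatching the embryo slips out of the zona pellucida, the coat of the egg. The sources used here do not give breed, parents, embryo age, culture medium, pool size or the days of collection. Differences between libraries of a group may therefore be technical in part, and the p-values measure only that spread. Origin cannot be told apart from animals, embryo age or batch.

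The proteasome is the protease that breaks down proteins marked with ubiquitin. Its core is a barrel of alpha rings, which gate the entrance, around beta rings, which cut the protein. The cap sits on the alpha ring, where non-ATPase subunits bind the ubiquitin chain and remove it and a ring of ATPases unfolds the protein and feeds it in. Other activators (PSME genes) can replace the cap, PSMF1 can inhibit the core, and chaperones (PSMG genes for the core, PSMD5, PSMD9 and PSMD10 for the cap) help to assemble the particle. In immune cells and under interferon, PSMB8, PSMB9 and PSMB10 replace the catalytic subunits PSMB5, PSMB6 and PSMB7 and give the immunoproteasome, which makes peptides for antigen presentation. In early embryos, ubiquitin and the proteasome take part in the removal of proteins stored in the egg, while stored messages are replaced by messages of the embryo's own genome.

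Libraries held 33259311 to 39273867 counts, so that 3 counts corresponded to 0.0764 to 0.0902 CPM (counts scaled to the library total). For 1 library of in vivo hatched blastocysts the counts carried no replicate number; it is called the unnumbered library and comes first where in vivo hatched values are listed. The labelled stages went with their markers. The summed level of 7 oocyte genes was 15732 to 22030 CPM in 4-cell libraries and at most 18.8 CPM elsewhere, and that of 7 trophectoderm genes was 19682 to 37222 CPM in blastocysts and hatched blastocysts. 4-cell library 1 stood apart from the other 4-cell libraries: its trophectoderm genes summed to 857 CPM, against 157 and 98.6 CPM. By group mean most of the 4-cell sum was TFAP2C, with 335 CPM, against 238 to 316 CPM in the blastocyst and hatched groups. KRT8 had a 4-cell mean of 2.19 CPM, and KRT18 and CDX2 had 0 CPM. In RNA from whole pools, fewer cells of a type cannot be told apart from less RNA per cell.

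The 48 proteasome genes together took 0.641% to 0.761% of the counts in 4-cell libraries and 0.886% to 1.32% in blastocyst and hatched libraries. By group mean, in vivo blastocysts had the highest level for 22 of the 48 genes, IVF blastocysts for 8, in vivo hatched blastocysts for 7, 4-cell embryos for 7 and IVF hatched blastocysts for 4. Many of these neighbouring means lay within the spread of the libraries. The immunoproteasome genes, PSMA8 and PSMB11 lay below 11 CPM in every library. PSMA8, an alpha subunit known from the testis, had 5.15, 7.91 and 5.67 CPM in 4-cell embryos, 3.37 and 4.02 CPM in in vivo blastocysts and 0.598 and 1.42 CPM in in vivo hatched blastocysts. It had 3.79, 1.55 and 4.70 CPM in IVF blastocysts and 2.39, 1.35 and 3.23 CPM in IVF hatched blastocysts. No comparison called it with edgeR; DESeq2 called it lower in in vivo hatched blastocysts than in in vivo blastocysts (log2 fold change -1.94, adjusted p = 0.0285) and below 4-cell embryos in hatched blastocysts made by IVF (log2 fold change -1.26, adjusted p = 0.0455). PSMB11, the beta subunit of the thymus, had 17 counts in in vivo blastocyst library 2 and 0 in the 12 other libraries.

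**Figure D1:**
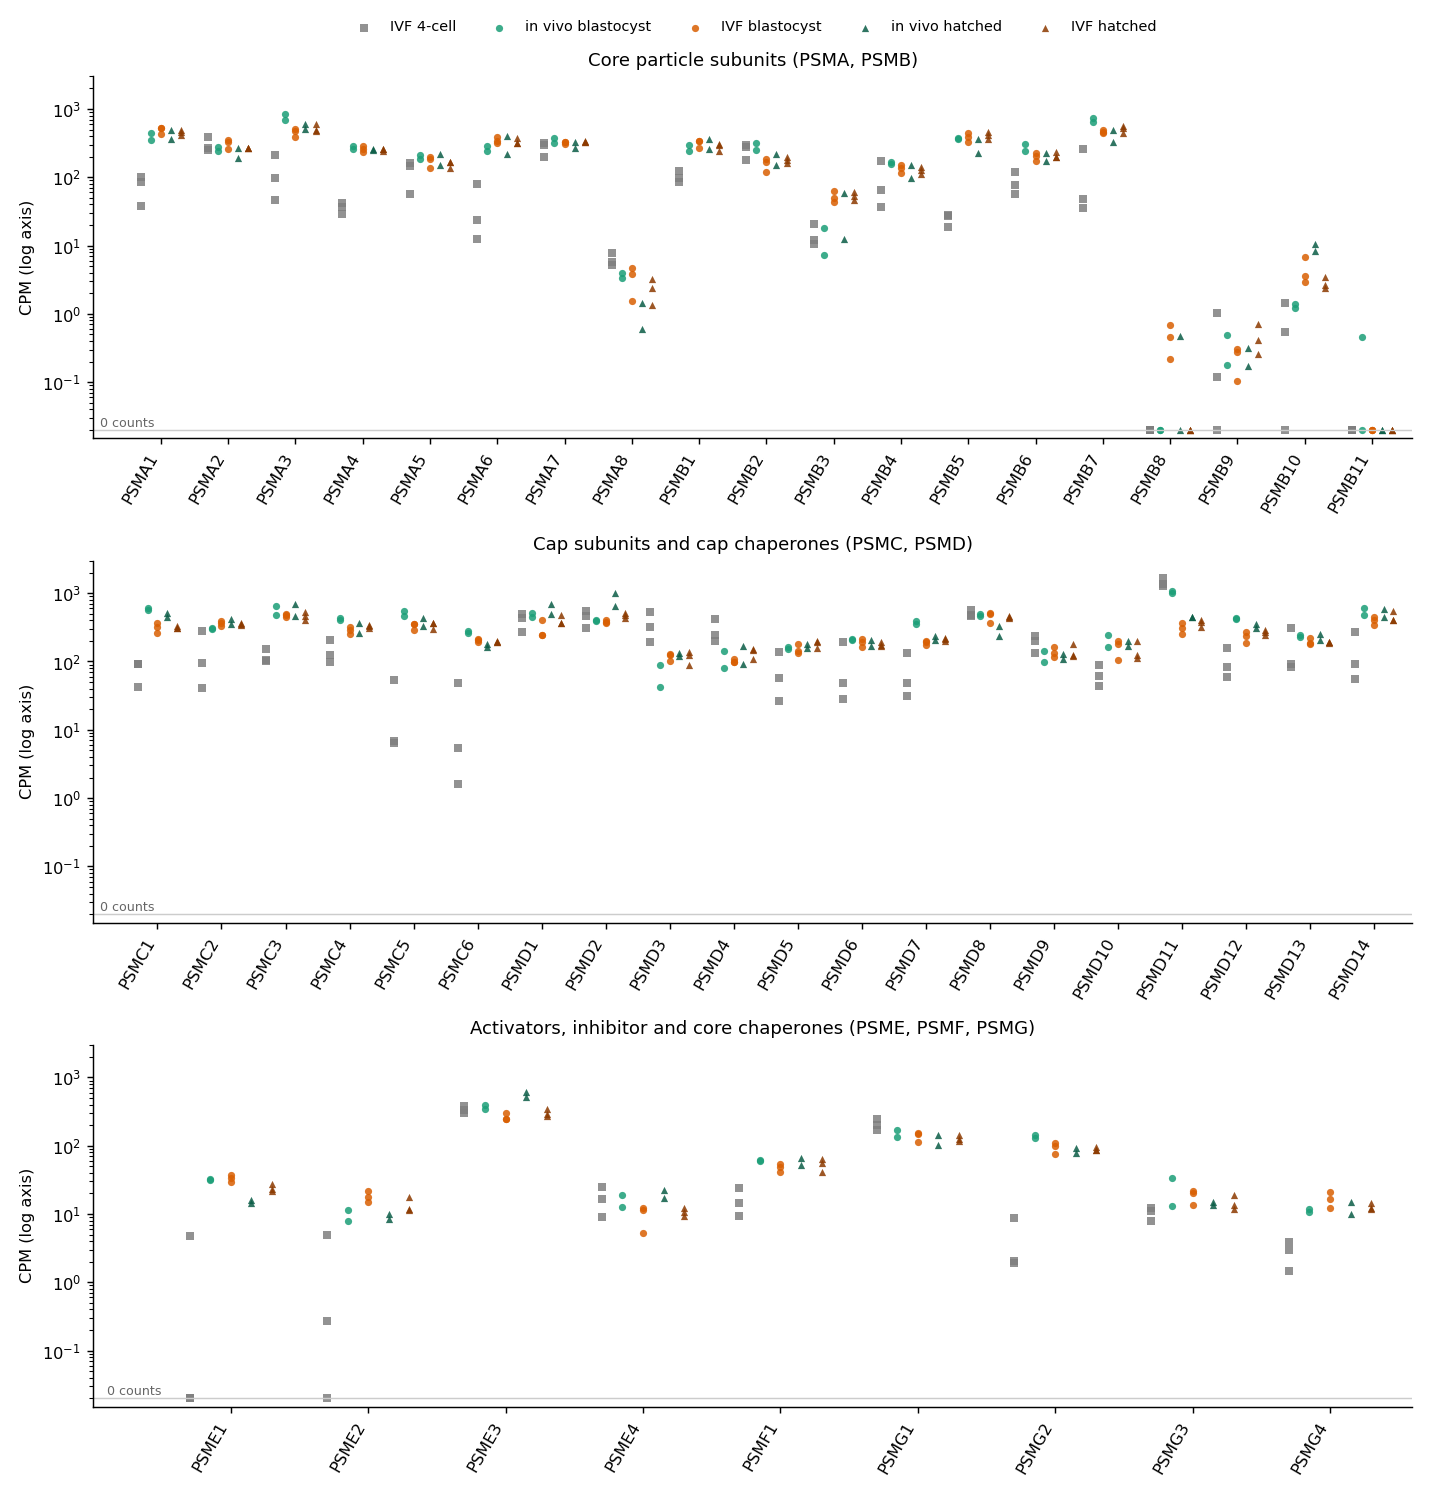
CPM (log axis) of the 48 proteasome genes in each of the 13 libraries, by group; each point is a library, and libraries with 0 counts are drawn on the grey line. PSMB8 to PSMB11 lie below 11 CPM in every library, and 4-cell embryos lie below the blastocysts for PSMB5 and above the IVF blastocysts for PSMD11.

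The comparison of IVF blastocysts with IVF 4-cell embryos describes the change with stage. Polyadenylated RNA was selected, so that a rise or fall is one in share of that RNA and not in amount per embryo. Most proteasome messages were higher in blastocysts, among them all 6 cap ATPases, the catalytic subunits PSMB5, PSMB6 and PSMB7 and the chaperone PSMG2, while the cap subunits PSMD3, PSMD4 and PSMD11 were lower. The 14 standard core genes together had 1980, 1449 and 1526 CPM in 4-cell libraries and 4218, 3590 and 4444 CPM in IVF blastocyst libraries, with no overlap. Of 46 proteasome genes that passed the filter on low counts (all but PSMB8 and PSMB11), 26 rose and 3 fell at an adjusted p under 0.05 in the quasi-likelihood test of edgeR. Of all 16312 genes tested, 25.7% were higher and 30.6% lower. The median log2 fold change was 1.495 over the 46 genes and -0.23 over all genes tested. By class, 9 of 17 core genes rose and none fell, 11 of 20 cap genes rose and 3 fell, and 6 of 9 activator, inhibitor and chaperone genes rose and none fell.

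In the core, PSMB5 carries the chymotrypsin-like activity (gene 100155139, chromosome 7, 76014576 to 76021922 in the RefSeq annotation of Sscrofa11.1). It had 27.6, 26.8 and 18.9 CPM in 4-cell embryos and 389, 333 and 443 CPM in IVF blastocysts, a log2 fold change of 4.25 ± 0.30 (adjusted p = 2.43e-05). All 3 blastocyst libraries lay more than 10-fold above the 4-cell libraries. PSMB7, the trypsin-like subunit (gene 100037992, chromosome 1, 265172257 to 265235389), had 263, 48.4 and 35.8 CPM at the 4-cell stage and 453, 460.1 and 491 CPM in blastocysts (log2 fold change 2.41 ± 0.62, adjusted p = 0.00966). Its 4-cell library 1 was over 5-fold above the others. PSMB6, the caspase-like subunit (gene 497065, chromosome 12, 52096009 to 52098164), rose less, from 56.9, 77.4 and 119.9 to 208, 175 and 224 CPM (log2 fold change 1.43 ± 0.40, adjusted p = 0.0133). Among beta subunits without a catalytic site, PSMB1 (log2 fold change 1.85 ± 0.32) and PSMB3 (log2 fold change 2.03 ± 0.42) rose, and PSMB2 (log2 fold change -0.48 ± 0.35) and PSMB4 (log2 fold change 0.88 ± 0.44) did not pass.

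The alpha ring moved unevenly. PSMA4 went from 36.7, 41.7 and 29.0 CPM to 256, 232 and 285 CPM (log2 fold change 3.10 ± 0.27, adjusted p = 5.56e-05), PSMA1 from 102, 85.1 and 38.2 to 526, 427 and 525 CPM (log2 fold change 3.02 ± 0.34, adjusted p = 0.000181) and PSMA6 from 79.0, 24.1 and 12.6 to 338, 318 and 390.0 CPM (log2 fold change 3.55 ± 0.55, adjusted p = 0.000841). PSMA3 also rose, by 2.29 ± 0.44. For these 4 genes the groups were apart. The other tested members of the standard ring did not pass. PSMA2 had 392, 249.7 and 271 CPM at the 4-cell stage and 352, 257 and 329 CPM in blastocysts (log2 fold change 0.31 ± 0.26, adjusted p = 0.341). PSMA7 had 199.7, 301 and 314 and 334, 310.4 and 329 CPM (log2 fold change 0.46 ± 0.32, adjusted p = 0.24), and PSMA5 did not pass either (log2 fold change 0.74 ± 0.42). Whether the 4 genes that rose differ from these 3 was not tested.

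In the cap, the ring of ATPases that unfolds proteins rose as a whole, with log2 fold changes from 1.27 to 4.30 and adjusted p from 0.000432 to 0.0174. PSMC3 went from 107, 152 and 103 to 482, 449 and 504 CPM (log2 fold change 2.23 ± 0.30, adjusted p = 0.000432) and PSMC1 from 92.8, 42.3 and 90.4 to 319.9, 261 and 363 CPM (log2 fold change 2.30 ± 0.37, adjusted p = 0.00101). PSMC5 (gene 397043, chromosome 12, 15101946 to 15106326) went from 54.0, 6.95 and 6.38 to 358, 292 and 353 CPM (log2 fold change 4.30 ± 0.76, adjusted p = 0.00162). The groups were apart for these ATPases, and PSMC5 and PSMC6 were both highest in 4-cell library 1 among the 4-cell libraries; PSMC6 had 47.8, 5.32 and 1.60 CPM there. Of the 11 non-ATPase subunits, 4 rose. They were PSMD6, PSMD7, PSMD12, a lid subunit with 155, 84.3 and 59.8 CPM before and 240.0, 184 and 275 CPM after (log2 fold change 1.53 ± 0.32, adjusted p = 0.0039), and PSMD14, the enzyme that removes the ubiquitin chain (log2 fold change 1.88 ± 0.47). The cap chaperone PSMD10 rose as well (log2 fold change 1.58 ± 0.40), and PSMD5 and PSMD9 did not pass.

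PSMD11, a lid subunit (gene 100523278, chromosome 12, 42498711 to 42529853), is the cap gene with the most message per length in 4-cell embryos, as given further on. It fell from 1346, 1265 and 1654 CPM to 305, 249.7 and 370.2 CPM (log2 fold change -1.99 ± 0.32, adjusted p = 0.00111), with every 4-cell library above 3 times the highest blastocyst library. PSMD4, a ubiquitin receptor of the cap, fell from 198, 246 and 416 to 109, 99.5 and 98.6 CPM (log2 fold change -1.31 ± 0.41, adjusted p = 0.022), and PSMD3, a scaffold of the lid, fell from 195, 315 and 522 to 126, 128 and 103 CPM (log2 fold change -1.37 ± 0.45, adjusted p = 0.0284). Both were highest in 4-cell library 3, and their groups did not overlap. The base subunits PSMD1 and PSMD2 did not pass (log2 fold change -0.22 ± 0.40 and 0.05 ± 0.29), nor did PSMD8 and PSMD13 of the lid (log2 fold change 0.08 ± 0.29 and 0.62 ± 0.43).

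The chaperones of the core did not move alike. PSMG1 and PSMG2 act as a pair that starts the alpha ring. PSMG2 (gene 100622916, chromosome 6, 96879009 to 96893551) rose from 8.79, 1.89 and 2.08 to 99.0, 76.4 and 108 CPM (log2 fold change 4.83 ± 0.58, adjusted p = 0.000253), with the groups far apart, and PSMG1 had 171, 244 and 198 and 156, 113 and 146 CPM (log2 fold change -0.34 ± 0.30, adjusted p = 0.366). PSMG3 and PSMG4 form another such pair. PSMG4 rose from 1.48, 3.91 and 2.94 to 20.8, 12.4 and 16.5 CPM (log2 fold change 2.78 ± 0.53, adjusted p = 0.0023), and PSMG3 from 12.2, 11.2 and 7.78 to 21.4, 13.4 and 20.6 CPM (log2 fold change 1.102 ± 0.39, adjusted p = 0.0372). Differences between partners of a pair were not tested.

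Among activators, PSME1 and PSME2, the subunits of the activator induced by interferon gamma, were near 0 in 2 of the 3 4-cell libraries. PSME1 had 4.71, 0 and 0 CPM at the 4-cell stage and 37.4, 34.2 and 29.5 CPM in blastocysts (log2 fold change 4.89 ± 1.70, adjusted p = 0.0352), and PSME2 had 4.92, 0 and 0.267 and 17.8, 21.3 and 15.1 CPM (log2 fold change 3.83 ± 1.41, adjusted p = 0.043). In both, the 4-cell value came almost wholly from library 1. PSME3, the nuclear activator, had 300.3, 382 and 335 and 243, 247 and 300.03 CPM (log2 fold change -0.14 ± 0.28, adjusted p = 0.699), and PSME4 had 9.18, 24.7 and 16.7 and 5.30, 11.3 and 12.4 CPM (log2 fold change -0.60 ± 0.53, adjusted p = 0.361). Their groups overlapped for PSME4 and lay close together for PSME3. The inhibitor PSMF1 rose from 23.98, 14.3 and 9.47 to 49.4, 40.9 and 54.5 CPM (log2 fold change 1.91 ± 0.36, adjusted p = 0.00235).

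4-cell library 1 was the highest 4-cell library for 19 of the 26 genes that rose, and exceeded the next by over 1.5-fold for 15. Its summed trophectoderm genes were also the highest, as given above, with 2 of the 7 at 0 in all 4-cell libraries. Most of the 4-cell sum was TFAP2C, and KRT8 and KRT18 were at or near 0. What sets this library apart was not tested. Without that library 31 genes rose and 4 fell. With single libraries left out, 23 of the 29 calls were kept every time, and PSMD3, PSMD4, PSMD6, PSME1, PSME2 and PSMG3 lost theirs in some. Without a blastocyst library, or without 4-cell library 3, PSMD3 and PSMD4 no longer passed, and their log2 fold changes lay from -1.59 to -0.74 and from -1.47 to -0.74 over all omissions. PSMD6 was lost without any library except 4-cell library 1 (log2 fold change 1.103 to 2.59), PSMG3 without 4-cell library 3 or blastocyst library 1 or 3 (log2 fold change 1.00 to 1.38), PSME1 without any blastocyst library (log2 fold change 4.33 to 13.31) and PSME2 without any of these or 4-cell library 3 (log2 fold change 3.32 to 7.23). The highest values of PSMD6, PSME1 and PSME2 came without 4-cell library 1.

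**Figure D2:**
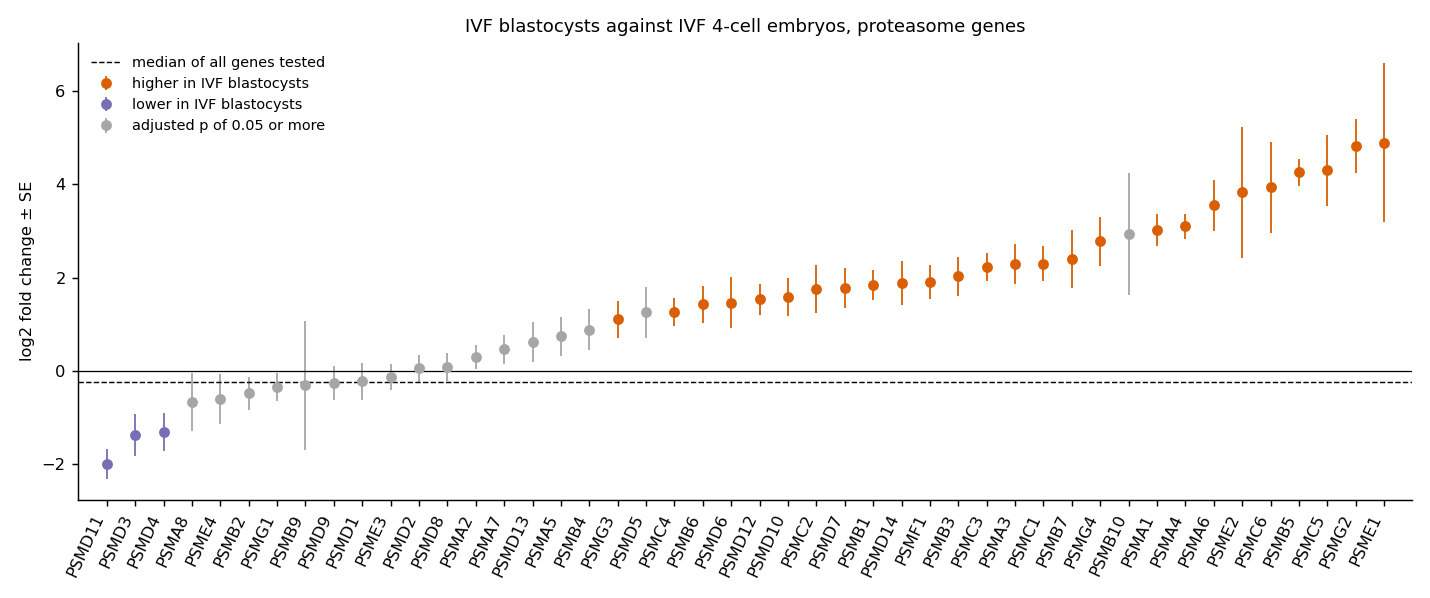
Log2 fold change of IVF blastocysts against IVF 4-cell embryos (3 libraries each) with its standard error for the 46 proteasome genes tested, in rising order; the dashed line is the median of all genes tested, -0.23. The 3 genes that fell are PSMD11, PSMD3 and PSMD4, and PSME1, PSMG2, PSMC5 and PSMB5 have the highest values.

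IVF hatched blastocysts set against the same 4-cell libraries gave 24 proteasome genes that were higher and 2 that were lower of 46 tested (25.7% and 30.9% of all genes). The lower genes were PSMD11 (log2 fold change -1.68 ± 0.32, adjusted p = 0.00238) and PSMD3 (log2 fold change -1.35 ± 0.45, adjusted p = 0.0291). PSMB5 had 419.9, 456 and 362 CPM (log2 fold change 4.39 ± 0.30, adjusted p = 2.21e-05), PSMB6 199, 231 and 196 CPM (log2 fold change 1.52 ± 0.40, adjusted p = 0.0101) and PSMB7 519.6, 572 and 443 CPM (log2 fold change 2.58 ± 0.62, adjusted p = 0.00717) in hatched blastocysts. All 6 cap ATPases again passed, with log2 fold changes from 1.51 to 4.39. PSMG2 (log2 fold change 4.79 ± 0.58), PSMG4 (log2 fold change 2.44 ± 0.52), PSMF1 (log2 fold change 2.10 ± 0.36) and PSME1 (log2 fold change 4.46 ± 1.67) were the higher genes outside core and cap. This comparison shares its 4-cell libraries with the one above and is no separate support for it. Of the 26 calls, 22 held with each library left out; PSME1 was lost without any library except 4-cell library 1, PSMD3 and PSMD5 without 4-cell library 3 or any hatched library, and PSMD10 without hatched library 2, and over all omissions their values ranged from 3.90 to 12.88, -1.59 to -0.73, 1.26 to 2.40 and 1.16 to 1.87. Without 4-cell library 1, 30 genes were higher and 3 lower.

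Subunits that occupy equal numbers of places in the particle were compared per length, by the deposited FPKM of 12 libraries; the unnumbered library was left out, since its FPKM column is named differently. In 4-cell embryos their messages were far from even. The coefficient of variation (CV) over the 14 standard core genes was 80.4% to 104.8% in 4-cell libraries and 40.3% to 55.2% in all blastocyst and hatched libraries. For the alpha ring it was 86.7% to 108.2% at the 4-cell stage, 14.1% and 22.1% in in vivo blastocysts and 30.8% to 34.6% in IVF blastocysts. The 4-cell libraries thus lay above all others in both sets. At the 4-cell stage PSMA2 (308 ± 78.4 FPKM, SD, n = 3), PSMB2 (283 ± 72.1) and PSMA7 (257 ± 58.8) led the core, and PSMB3 (20.2 ± 7.69) and PSMB5 (17.6 ± 3.47) were last. The means of the first 3 lay within 1 SD of each other, and so did those of the last 2.

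In blastocysts of both origins the order of the core was led by PSMB7, with 479 ± 21.0 FPKM after IVF (n = 3) and 708 ± 52.2 FPKM in vivo (n = 2). PSMB3, a beta subunit without a catalytic site, was last in all 4 groups of blastocysts, with 73.5 ± 14.4 FPKM after IVF and 17.8 ± 10.95 FPKM in vivo. In the cap of 4-cell embryos PSMD11 (452 ± 65.3 FPKM) and PSMD8 (311 ± 32.1) led, and the ATPases PSMC5 (15.1 ± 18.5) and PSMC6 (10.5 ± 14.9) were last. In IVF blastocysts PSMC3 (298 ± 15.8), PSMD8 (286 ± 51.0) and PSMD14 (249 ± 35.7) led, and PSMD3 (54.0 ± 6.35) and PSMD6 (51.7 ± 6.57) were last. On the count scale, which does not allow for gene length and is read here only between libraries, the ratio of summed cap to summed core CPM was 2.46 to 3.11 in 4-cell libraries, 1.17 to 1.21 in IVF blastocysts and 1.53 to 1.54 in in vivo blastocysts. On the same scale the 17 cap subunits together had 3804 to 4867 CPM in 4-cell libraries and 4327 to 5178 CPM in IVF blastocysts. These ranges overlap, while those of the core did not. Summed by FPKM, the whole cap was higher in every IVF blastocyst library than in any 4-cell library. By FPKM the 6 ATPases summed to 222 to 447 in 4-cell libraries and 1079 to 1256 in IVF blastocysts. The 11 non-ATPase subunits went the other way, with 1427 to 1850 and 1179 to 1418.

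Partners of the proteasome moved in both directions with stage. Of 31 tested rows of a list of assembly factors, ubiquitin genes, shuttles, the segregase and regulators, 12 rose and 5 fell in IVF blastocysts against 4-cell embryos (25.7% and 30.6% of all genes). AKIRIN2, which brings proteasomes into the nucleus, fell from 546, 2692 and 1505 CPM to 35.1, 34.9 and 48.4 CPM (log2 fold change -5.13 ± 0.63, adjusted p = 0.000278). PAAF1, a factor that binds the cap ATPases, rose from 1.69, 0.1503 and 2.08 to 124, 74.7 and 97.4 CPM (log2 fold change 6.45 ± 0.90, adjusted p = 0.000504). The groups were apart in both. ZFAND2A, a stress-induced zinc finger protein that binds the cap, fell from 308, 633 and 423 to 59.2, 37.7 and 56.4 CPM (log2 fold change -2.93 ± 0.42, adjusted p = 0.00061). POMP, the maturation factor of the core, was picked after its values were seen; it rose from 103, 24.3 and 25.7 to 347, 251 and 362 CPM (log2 fold change 3.005 ± 0.51, adjusted p = 0.00133). Hatched blastocysts against the same 4-cell libraries also gave 12 and 5 (25.7% and 30.9% of all genes).

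IVF and in vivo blastocysts were compared to describe the difference between origins. IVF blastocysts had less message of several cap subunits, most of all PSMD11, and more of PSMB3 and PSMB10. Of 47 proteasome genes tested (all but PSMB11), 2 were higher and 6 lower after IVF, where 6.09% and 4.74% of all 15528 genes were higher and lower. The median log2 fold change was -0.23 over the 47 genes and 0.05 over all genes. The cap held 4 of the 6 lower genes, and 15 of its 17 subunits had a negative log2 fold change, called or not. PSMD3 went the other way: DESeq2 called it higher after IVF (log2 fold change 0.83, adjusted p = 0.0259). DESeq2 also added PSMC4, PSMC5, PSMC6 and PSMD1 as lower. Without the filter on low counts, edgeR added PSMD3 as higher (adjusted p = 0.0215) and PSMD1 as lower (adjusted p = 0.0418). Summed over these subunits, the cap had 6903 and 7137 CPM in vivo and 4327 to 5178 CPM after IVF, and the standard core had 4491 and 4677 CPM in vivo and 3590 to 4444 CPM after IVF.

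In the cap, PSMD11 had 1086 and 997 CPM in vivo and 305, 249.7 and 370.2 CPM after IVF, for a log2 fold change of -1.79 ± 0.22 (adjusted p = 0.00319). Both in vivo libraries were more than 2-fold above the highest IVF library. PSMD7, the lid subunit that pairs with PSMD14 (gene 100626274, chromosome 6, 17047420 to 17057170), had 389 and 355 and 200.03, 175 and 195 CPM (log2 fold change -1.004 ± 0.19, adjusted p = 0.00992). The ATPase PSMC1 (gene 100155274, chromosome 7, 112027904 to 112041360) had 569 and 604 and 319.9, 261 and 363 CPM (log2 fold change -0.93 ± 0.19, adjusted p = 0.0139), and PSMD12 had 434 and 413 and 240.0, 184 and 275 CPM (log2 fold change -0.90 ± 0.21, adjusted p = 0.0212). The groups did not overlap in any of these 4 genes. As the genes were picked by their p, this is no further support, and genes that were not called, such as PSMC5, PSMB6 and PSMB7, were apart too.

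In the core, PSMA3, an alpha subunit, had 847 and 688 CPM in vivo and 476, 388 and 505 CPM after IVF (log2 fold change -0.79 ± 0.22, adjusted p = 0.0442). PSMB2 had 321 and 253 and 166, 121 and 184 CPM (log2 fold change -0.91 ± 0.26, adjusted p = 0.0446). PSMB3 (gene 497064, chromosome 12, 23347060 to 23357616) went the other way, with 7.18 and 18.2 CPM in vivo and 50.2, 43.4 and 63.6 CPM after IVF (log2 fold change 2.05 ± 0.57, adjusted p = 0.0406). Its in vivo libraries differed by over 2-fold from each other and both lay below the IVF libraries. The catalytic subunits did not pass: PSMB5 had 364 and 382 CPM in vivo (log2 fold change 0.03 ± 0.25, adjusted p = 0.966), PSMB6 307 and 245 CPM (log2 fold change -0.49 ± 0.23, adjusted p = 0.198) and PSMB7 656 and 727 CPM (log2 fold change -0.59 ± 0.23, adjusted p = 0.123). No activator, inhibitor or core chaperone was called. PSME1 had 31.7 and 32.8 CPM in vivo (log2 fold change 0.03 ± 0.23, adjusted p = 0.953), PSME2 11.4 and 7.92 CPM (log2 fold change 0.85 ± 0.35, adjusted p = 0.136), PSME3 393 and 342 CPM (log2 fold change -0.52 ± 0.21, adjusted p = 0.13) and PSME4 12.6 and 18.9 CPM (log2 fold change -0.72 ± 0.36, adjusted p = 0.227).

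Of these 8 calls, PSMD11 alone was kept with each of the 5 libraries left out in turn (log2 fold change -1.94 to -1.62). Without in vivo library 1 it was the only call, and 3, 2 and 5 proteasome genes were called without IVF library 1, 2 and 3; with the 4-cell libraries added to the fit, 0 were called. PSMD7 was lost only without in vivo library 1 (log2 fold change -1.16 to -0.82), PSMC1 also without IVF library 2 (log2 fold change -1.03 to -0.81), and PSMD12 also without IVF library 1 or 2 (log2 fold change -1.02 to -0.75). PSMA3 (log2 fold change -1.02 to -0.52), PSMB2 (log2 fold change -1.15 to -0.61) and PSMB3 (log2 fold change 1.60 to 2.74) were kept only when in vivo library 2 was the one left out, and PSMB10 was lost in every omission (log2 fold change 1.27 to 1.96). In this comparison messages of the mitochondrial genome took 3.52% and 3.76% of the counts in vivo and 0.883% to 1.07% after IVF, the summed trophectoderm genes had 22572 and 22779 CPM in vivo and 30772 to 37222 CPM after IVF, and the summed inner cell mass genes had 737 and 795 CPM and 919 to 1389 CPM. Most of the trophectoderm sum was KRT8, with means of 19840 CPM in vivo and 29777 CPM after IVF. By mean KRT18, GATA2 and CDX2 were also higher after IVF, and GATA3, TFAP2C and TEAD4 were lower. Most of the inner cell mass sum was POU5F1, with 740 and 1116 CPM, while SOX2, KLF4 and LIN28A were lower after IVF. None of the 7 trophectoderm and 4 inner cell mass genes was at 0 in all libraries of a group. Blood and immune genes summed to 3.26 and 4.48 CPM in vivo and 5.68 to 7.01 CPM after IVF, and oviduct and uterine epithelium genes to 0.952 and 1.56 CPM and 0.568 to 0.824 CPM. Of the blood and immune genes LYZ was higher after IVF (means of 0.524 and 3.77 CPM), and CD68 was not. The part of these lists in the result was not tested.

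**Figure D3:**
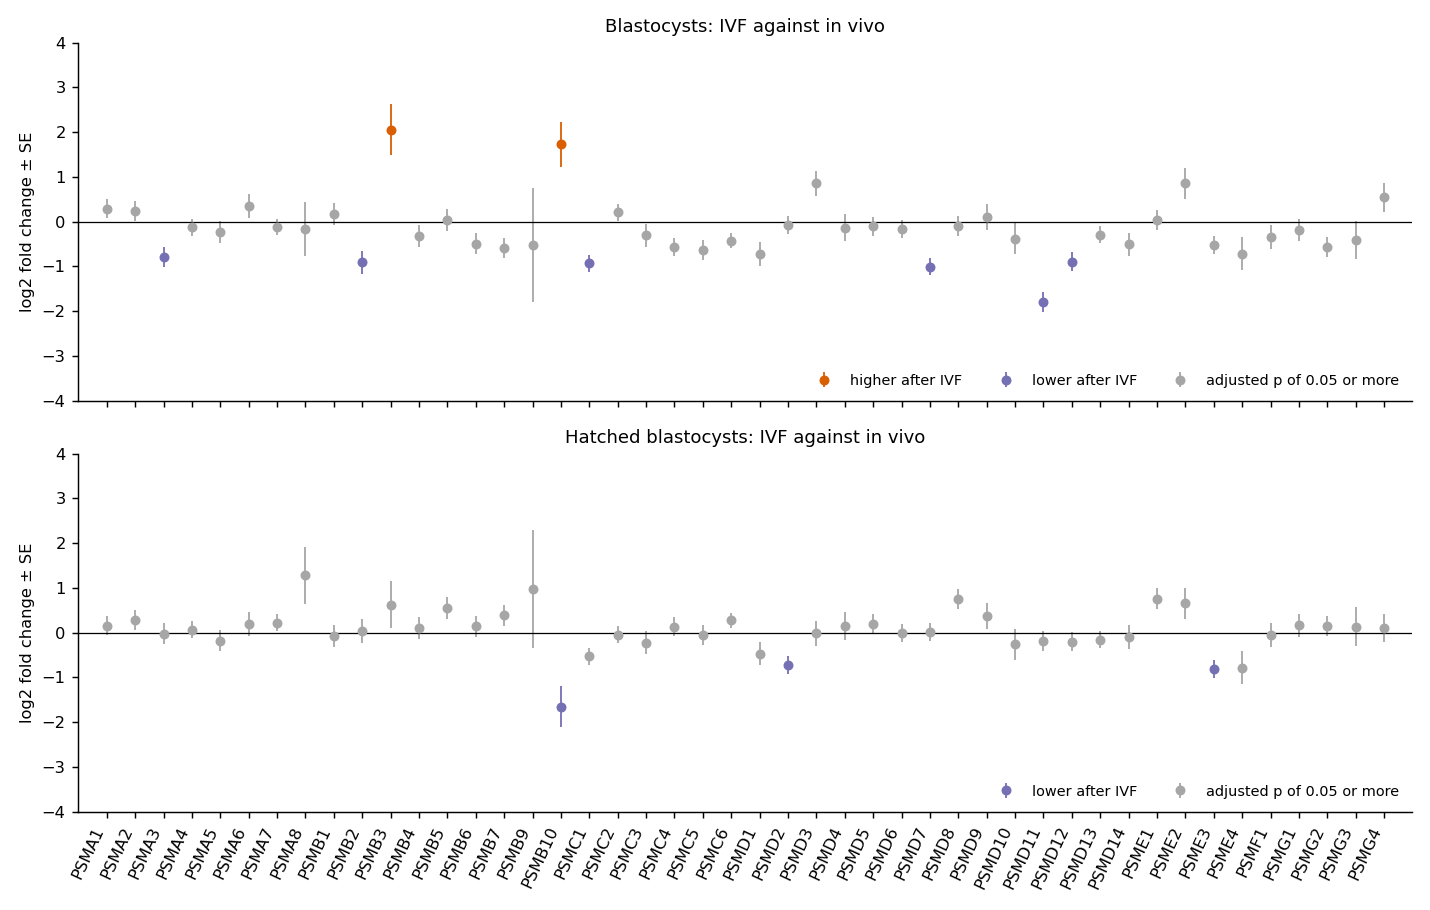
Log2 fold change of IVF against in vivo embryos with its standard error for the tested proteasome genes except PSMB8, at the blastocyst stage (top, 3 against 2 libraries) and the hatched stage (bottom, 3 against 2 libraries). PSMD11 has the lowest value among blastocysts, -1.79, and PSMB10 lies above 0 in blastocysts and below 0 in hatched blastocysts.

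Among hatched blastocysts the origins differed in few proteasome genes. With edgeR, none of 47 was higher and 3 were lower after IVF: PSMB10, PSMD2 and PSME3 (6.96% and 4.88% of all genes were higher and lower). At an unadjusted p under 0.05 in the edgeR test, 8 of the 47 passed in either direction, as did 4278 of all 15528 genes. PSME3 (gene 397625, chromosome 12, 20028112 to 20035865) had 524 and 613 CPM in vivo and 275, 344 and 291 CPM after IVF (log2 fold change -0.81 ± 0.21, adjusted p = 0.0271). PSMD2, the large scaffold of the cap base (gene 100627568, chromosome 13, 122187500 to 122199397), had 656 and 1003 CPM in vivo and 427, 506 and 472 CPM after IVF (log2 fold change -0.73 ± 0.21, adjusted p = 0.0412). PSMB10 had 10.7 and 8.25 CPM in vivo and 2.41, 2.64 and 3.51 CPM after IVF (log2 fold change -1.66 ± 0.46, adjusted p = 0.039). The libraries of the origins were apart in each, as they were in PSME1, PSME2 and PSMC1, which were not called. PSMD11 had 445 and 444 CPM in vivo and 380.2, 410.4 and 315 CPM after IVF (log2 fold change -0.18 ± 0.22, adjusted p = 0.651), and here the in vivo values lay just above the highest IVF library.

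No call of this comparison held with every library left out: the count was 5 without the unnumbered in vivo library, 1 without IVF hatched library 2 and 0 without in vivo library 2, IVF hatched library 1 or IVF hatched library 3. Over these omissions PSME3 ranged from -0.97 to -0.74, PSMD2 from -0.96 to -0.46 and PSMB10 from -1.89 to -1.40. DESeq2 called 6 genes, 2 higher and 4 lower after IVF, and the fit of all 13 libraries called 0. The higher genes with DESeq2 were PSMD8 (log2 fold change 0.71, adjusted p = 0.0175) and PSME1 (log2 fold change 0.72, adjusted p = 0.0101). edgeR without the filter on low counts also called PSMD8 higher (log2 fold change 0.74, adjusted p = 0.0408). The standard core showed values from -0.18 (PSMA5) to 0.63 (PSMB3), with standard errors of 0.18 or more, and none passed. Mitochondrial messages took 1.49% of the counts in the unnumbered library and 6.85% in in vivo library 2, against 0.606% to 0.982% after IVF. Summed inner cell mass genes had 545 and 343 CPM in vivo and 739 to 1020 CPM after IVF. Most of this was POU5F1, with means of 428 and 893 CPM, while the means of SOX2, KLF4 and LIN28A were higher in vivo. Summed hypoblast genes had 219 and 697 CPM in vivo and 129 to 206 CPM after IVF. No gene of either list was at 0 in all libraries of a group. At lower levels, summed oocyte genes (11.02 and 18.8 CPM in vivo, 0.362 to 2.05 CPM after IVF) were apart too. So were blood and immune genes (1.57 and 2.60 CPM in vivo, 3.03 to 5.603 CPM after IVF). In vivo 2 of the 7 oocyte genes, among them ZP3, and 3 of the 8 blood and immune genes were at 0. ZAR1 gave most of the in vivo oocyte sum, with a mean of 13.5 CPM beside 0.894 CPM of GDF9 and 0.268 CPM of BMP15. The part of these in the result was not tested.

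Within in vivo embryos, hatched blastocysts had less PSMD11, PSMD7, PSMD8, PSMC6 and PSME1 message than blastocysts and more PSMB10 and PSMD2. Of 47 genes tested, 2 rose and 5 fell, and 6.96% and 7.39% of all genes did so. PSMD11 went from 1086 and 997 to 445 and 444 CPM (log2 fold change -1.31 ± 0.25, adjusted p = 0.00651), and the 2 hatched libraries nearly coincided. PSMD7 went from 389 and 355 to 234 and 209 CPM (log2 fold change -0.83 ± 0.21, adjusted p = 0.0243) and PSMD8 from 462 and 500.3 to 332 and 235 CPM (log2 fold change -0.83 ± 0.25, adjusted p = 0.0438). The ATPase PSMC6 went from 261 and 279.9 to 178 and 162 CPM (log2 fold change -0.74 ± 0.19, adjusted p = 0.0258). All 4 cap genes had groups without overlap, which is no further support for genes picked by their p. PSME1 fell from 31.7 and 32.8 to 14.5 and 16.1 CPM (log2 fold change -1.16 ± 0.25, adjusted p = 0.012), while its partner PSME2 had 11.4 and 7.92 and 10.1 and 8.38 CPM (log2 fold change -0.16 ± 0.37, adjusted p = 0.822). PSMD2 rose from 401 and 389 to 656 and 1003 CPM (log2 fold change 0.98 ± 0.23, adjusted p = 0.0174).

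This comparison shares the in vivo blastocysts with the blastocyst comparison above and the in vivo hatched blastocysts with the hatched one, so that calls of a gene in both are not independent. PSMB10 and PSMD11 kept their calls with each of 4 libraries left out (log2 fold change 2.53 to 3.02 and -1.46 to -1.12). The others lost theirs in some: PSME1, PSMD7, PSMC6 and PSMD8 without in vivo blastocyst library 1 or in vivo hatched library 2, PSMC6, PSMD8 and PSMD2 without in vivo blastocyst library 2, and PSMD2 without in vivo hatched library 2. Their values ranged from -1.23 to -1.06 (PSME1), -0.98 to -0.63 (PSMD7), -0.86 to -0.62 (PSMC6), -1.15 to -0.55 (PSMD8) and 0.71 to 1.22 (PSMD2). The count was 3 without in vivo blastocyst library 1 or in vivo hatched library 2, 1 (PSMB10) when only these 4 libraries were fitted and 0 with all 13 libraries. Summed hypoblast genes had 111 and 188 CPM in blastocysts and 219 and 697 CPM in hatched blastocysts. Summed inner cell mass genes had 795 and 737 CPM and 545 and 343 CPM. Most of the inner cell mass sum was POU5F1, with means of 740 and 428 CPM. By mean KLF4 fell too, while SOX2 and LIN28A rose. No gene of either list was at 0 in all libraries of a group. Cumulus and granulosa genes summed to 11.6 and 13.9 CPM in blastocysts and 54.8 and 56.3 CPM in hatched blastocysts, with 3 of their 7 genes, FSHR and TNFAIP6 among them, at 0 in each group. By mean STAR (2.97 and 35.7 CPM) and VCAN rose, and INHBA fell. Oocyte genes summed to 1.21 and 2.96 CPM and to 11.02 and 18.8 CPM, with 4 and 2 of their 7 genes at 0. ZAR1 gave most of the hatched sum, with means of 0 and 13.5 CPM, while GDF9 fell from 1.84 to 0.894 CPM. Blood and immune genes summed to 3.26 and 4.48 CPM and to 1.57 and 2.60 CPM, with 1 and 3 of their 8 genes at 0. The part of these in the result was not tested.

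Within IVF embryos no proteasome gene differed between hatched blastocysts and blastocysts. Of 47 tested, 0 were called by edgeR and 0 by DESeq2, and 0.0451% of all genes (7 of 15528) were called by edgeR in either direction. At an unadjusted p under 0.05 in the edgeR test 1 of the 47 passed, as did 594 of all 15528 genes. Log2 fold changes of the 14 standard core genes lay from -0.19 (PSMA2) to 0.24 (PSMA3), with standard errors of 0.16 or more. Those of the 17 cap subunits lay from -0.06 (PSMD6) to 0.47 (PSMD1). PSMD11 had 305, 249.7 and 370.2 CPM in blastocysts and 380.2, 410.4 and 315 CPM in hatched blastocysts (log2 fold change 0.30 ± 0.20), and these ranges overlap. The missing calls do not show that the groups were alike.

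The change with hatching was then compared between origins. It differed for PSMD11, higher after IVF, and PSMB10, lower after IVF, each 1 of 47 genes (2.13%). Of all genes, 2.79% had a higher and 1.93% a lower change after IVF, so both counts are near the share over all genes. For PSMD11 the log2 fold change with hatching was -1.31 ± 0.25 in vivo and 0.30 ± 0.20 after IVF, a difference of 1.61 ± 0.32 (adjusted p = 0.0194). For PSMB10 it was 2.78 ± 0.55 in vivo and -0.61 ± 0.42 after IVF, a difference of -3.39 ± 0.68 (adjusted p = 0.0209). PSMD7 had a difference of 1.02 ± 0.27 (adjusted p = 0.0555) and did not pass with edgeR. DESeq2 called 6 genes, adding PSMD7 (adjusted p = 0.00559), PSMC6, PSMB7 and PSMB8. PSMB10 kept its call in 9 of 10 omissions, and PSMD11 in 7 of 10. Without IVF hatched library 2 neither passed, and PSMD11 was also lost without in vivo blastocyst library 1 or in vivo hatched library 2; their values ranged from -3.62 to -2.93 and from 1.42 to 1.76.

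**Figure D4:**
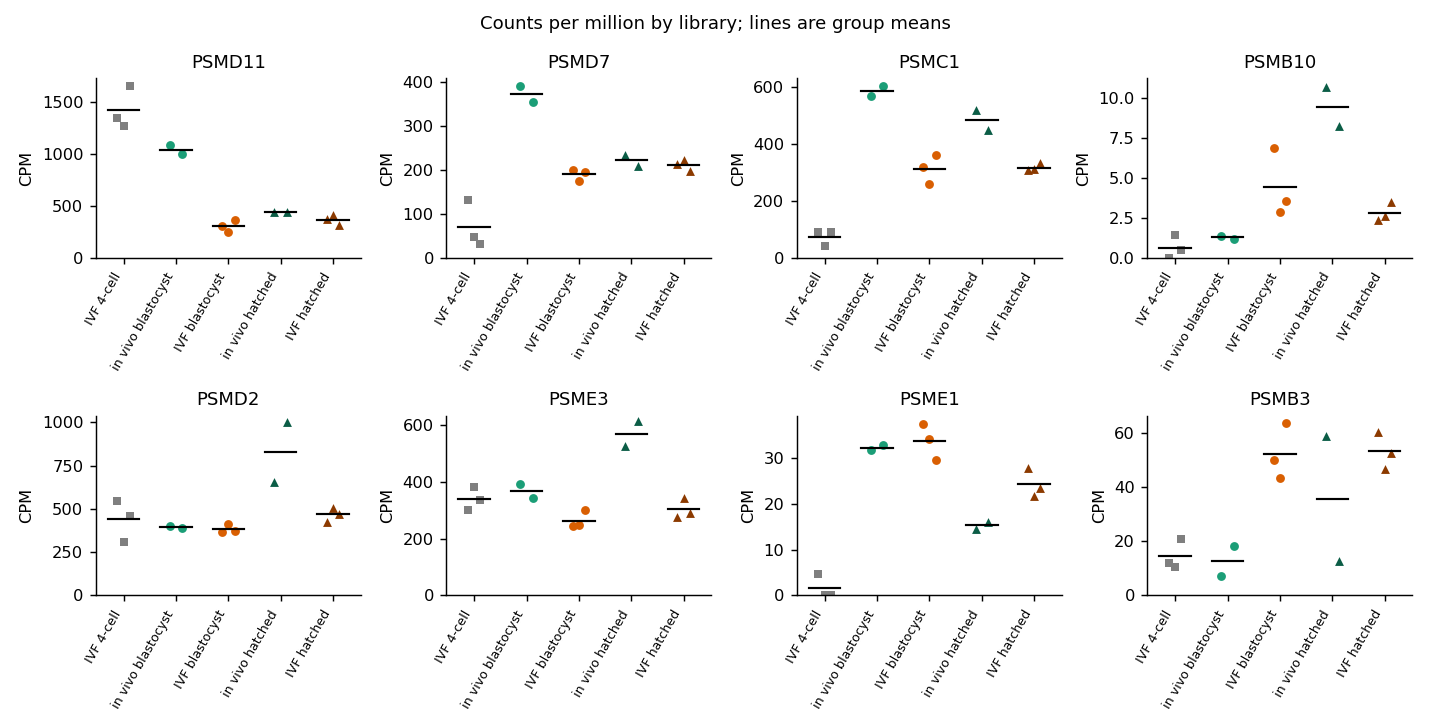
CPM of 8 proteasome genes in each of the 13 libraries; points are libraries and lines are group means. PSMD11 is high in 4-cell embryos and in vivo blastocysts and low in the other 3 groups, and PSMB10 is highest in the in vivo hatched libraries, at 8.25 and 10.7 CPM.

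The immunoproteasome genes were at or near the limit of detection, apart from PSMB10. PSMB8 (gene 396975, chromosome 7, 25058456 to 25061666) had 0 counts in in vivo blastocysts, 4-cell embryos and IVF hatched blastocysts, 0 and 18 counts in in vivo hatched libraries and 18, 27 and 8 counts in IVF blastocysts. A count of 0 allows up to 0.0902 CPM in the smallest library, by counting error only. PSMB9 (gene 654294, chromosome 7, 25072133 to 25077508) had 7 and 18 counts in in vivo blastocysts, 6 and 12 in in vivo hatched, 35, 4 and 0 in 4-cell, 12, 4 and 10 in IVF blastocyst and 25, 10 and 15 in IVF hatched libraries. With every library kept, edgeR with the filter on low counts called neither gene in any comparison. With any 4-cell library left out, it called PSMB8 in IVF blastocysts against 4-cell embryos. Without that filter it called PSMB8 in the difference of hatching changes (adjusted p = 0.0338), and DESeq2 called PSMB8 there (adjusted p = 0.0324) and in IVF blastocysts against 4-cell embryos (adjusted p = 0.0409). Each of these rests on groups whose libraries are at 0. Their groups overlapped wherever both had counts.

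PSMB10 (gene 733626, chromosome 6, 28544910 to 28547609), which replaces PSMB7, had 54 and 45 counts in in vivo blastocysts and 376 and 308 counts in in vivo hatched blastocysts. This was 1.39 and 1.21 CPM and 10.7 and 8.25 CPM, a log2 fold change of 2.78 ± 0.55 (adjusted p = 0.00764). 4-cell embryos had 0, 1.44 and 0.534 CPM, IVF blastocysts 6.90, 2.89 and 3.54 CPM and IVF hatched blastocysts 2.41, 2.64 and 3.51 CPM. In vivo blastocysts were thus below, and in vivo hatched blastocysts above, both groups of IVF blastocysts. Against in vivo blastocysts, IVF blastocysts had a log2 fold change of 1.73 ± 0.50 (adjusted p = 0.0481), and with any of these 5 libraries left out its adjusted p was 0.0549 to 0.157. In FPKM, PSMB10 amounted to 0.208% and 0.163% of PSMB7 in in vivo blastocysts and 2.49% in in vivo hatched library 2. It amounted to 0%, 2.88% and 1.39% in 4-cell libraries, 0.613% to 1.49% in IVF blastocysts and 0.451% to 0.775% in IVF hatched blastocysts, so that 4-cell library 2 had the highest share. The summed level of 8 blood and immune genes lay between 1.57 and 21.6 CPM over all libraries, with the highest value in a 4-cell library.

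Of 16 tested rows of antigen presentation and interferon genes, 2 were higher after IVF at the blastocyst stage (6.09% of all genes) and 2 at the hatched stage (6.96%), and none was lower at either. TAP1, a peptide transporter whose gene lies between PSMB8 and PSMB9, had 20.3 and 36.3 CPM in in vivo and 87.7, 93.1 and 57.7 CPM in IVF blastocysts (log2 fold change 1.49 ± 0.38, adjusted p = 0.0295). In hatched blastocysts it had 10.3 and 7.71 CPM in vivo and 72.2, 47.6 and 33.4 CPM after IVF (log2 fold change 2.58 ± 0.40, adjusted p = 0.00254), and within in vivo embryos it fell with hatching (log2 fold change -1.70 ± 0.40, adjusted p = 0.0184). With hatching in vivo TAP1 was the 1 row called of the 16, where 7.39% of all genes were lower. The origins were apart for TAP1 at both stages.

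Of the 31 rows of proteasome partners, 1 was higher and 5 were lower after IVF at the blastocyst stage (6.09% and 4.74% of all genes). RPS27A, a ubiquitin fusion gene, had 39.9 and 67.6 CPM in vivo and 121, 123 and 160.1 CPM after IVF (log2 fold change 1.32 ± 0.35, adjusted p = 0.034). ZFAND5, a proteasome activator, had 274 and 309 CPM in vivo and 153, 161 and 179.8 CPM after IVF (log2 fold change -0.85 ± 0.21, adjusted p = 0.0261). AKIRIN2 had 63.4 and 72.0 and 35.1, 34.9 and 48.4 CPM (log2 fold change -0.80 ± 0.22, adjusted p = 0.0395). The origins did not overlap in these genes. NFE2L1, a transcription factor that drives proteasome genes when proteasome activity is low, was picked after its values were seen. It had 16.1 and 12.9 CPM in vivo and 5.68, 4.44 and 6.21 CPM after IVF (log2 fold change -1.46 ± 0.41, adjusted p = 0.0419).

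In hatched blastocysts, 2 of the 31 partners were lower after IVF and none was higher (4.88% and 6.96% of all genes). They were AKIRIN2 (log2 fold change -1.02 ± 0.22, adjusted p = 0.0132) and PITHD1, a PITH domain protein (log2 fold change -0.84 ± 0.20, adjusted p = 0.0198). With hatching in vivo, 1 of the 31 partners rose and 2 fell (6.96% and 7.39% of all genes). VCP, the segregase that extracts ubiquitin-marked proteins, rose from 317 and 550.0 to 777 and 1046 CPM (log2 fold change 1.01 ± 0.28, adjusted p = 0.032). UBB, a polyubiquitin gene, fell from 4445 and 4797 to 3127 and 1783 CPM (log2 fold change -0.98 ± 0.29, adjusted p = 0.0461), and NFE2L1 fell to 4.84 and 5.86 CPM (log2 fold change -1.53 ± 0.46, adjusted p = 0.0463). No partner was called with hatching after IVF or in the difference of the hatching changes. At an unadjusted p under 0.05 in the edgeR test, 1 of 31 passed with hatching after IVF (594 of all 15528 genes). In the difference of the hatching changes 5 of 31 passed (3403 of all 15528 genes).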

How the data were processed

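Messenger RNA libraries of pooled pig embryos (13 libraries, 5 groups) came as 1 gene table on Sscrofa11.1, with read counts, FPKM and TPM in 39 columns. The deposited counts are whole numbers that the authors did not normalise. The deposited FPKM values are levels per gene length and library size made by the authors, per the file headers. Of the columns 14 were not used, 13 of TPM and the FPKM column of in vivo hatched library 1, whose count column has no number. Per the labels' protocols, polyadenylated RNA was selected and read in pairs of 150 bases. RSEM, StringTie 1.3.1, HISAT2, Bowtie2 and fastp 0.18.0 are listed in the submitters' processing notes with no role, and how the counts were made and whether strand was used is not given in the sources used here. Of 28232 genes, 28208, including all 49 that met the symbol rule, matched a RefSeq table of the same build by gene number, and the positions come from it.

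CPM are counts scaled to the library total. The main test was edgeR's quasi-likelihood test (version 4.0.16; R 4.3.3; TMM factors, edgeR's filter on low counts, Benjamini-Hochberg adjustment over all genes tested, threshold 0.05). The 10 blastocyst and hatched libraries were fitted together for comparisons among them, and the 9 IVF libraries for those with 4-cell embryos. Every adjusted p in the text comes from these fits unless another tool is named. Where groups of a called gene are said to be apart, this is no further support, since the gene was picked by its p. The share of all genes with groups apart was not worked out. A value after ± is the standard error of a log2 fold change or the SD of an FPKM mean. Alternatives were other scalings, no filter, DESeq2 1.42.0, other sets of libraries in the fit, a replicate block and each library left out. The scripts were tested on simulated data.

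Values per library are printed for the catalytic, immunoproteasome and tissue-specific core subunits, activators, inhibitor and core chaperones, and for up to 4 called genes on each side of a comparison in each class by smallest p; other genes were added for their role. Of the partner lists up to 4 genes a comparison are named by smallest p. The proteasome genes and both lists were chosen with earlier results of these data known. Of the partners, ECPAS and DDI2 are not in the table under those symbols, and SEM1 and B2M have 2 rows each. No pair of replicates was as close as counting error would make copies of 1 library (the smallest chi-square over its degrees of freedom was 72.5). Replicate numbers were not taken to pair samples, since deviations of same-numbered libraries correlated by -0.18 to 0.058. A few genes of the partner lists are counted but not reported here by name.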

Additional observations from a re-analysis of the deposited data

Results flagged for a closer look

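The change with hatching differed between origins for 2 proteasome genes, by the test of the difference itself (edgeR quasi-likelihood, IVF minus in vivo). As given above, that count is near the share over all genes. For PSMB10, the immunoproteasome subunit, the difference was -3.39 ± 0.68 (adjusted p = 0.0209): both in vivo hatched libraries were above both in vivo blastocyst libraries (10.7 and 8.25 against 1.39 and 1.21 CPM), while IVF hatched libraries (2.41, 2.64 and 3.51 CPM) overlapped IVF blastocysts (6.90, 2.89 and 3.54 CPM). For PSMD11, the lid subunit, it was 1.61 ± 0.32 (adjusted p = 0.0194): the in vivo hatched libraries (445 and 444 CPM) were below the in vivo blastocysts (1086 and 997 CPM), and IVF hatched libraries (380.2, 410.4 and 315 CPM) overlapped IVF blastocysts (305, 249.7 and 370.2 CPM). Neither passed without IVF hatched library 2, where 0 proteasome genes were called.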

How the results depend on the processing

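Counts of called proteasome genes against 4-cell embryos, and the count of 0 for IVF hatching, stayed within 1.5 times under every alternative run (60 alternative counts over all comparisons did so). The other 27 were as follows, and the cause was not tested. With DESeq2 the counts were 13 (from 8) for IVF against in vivo blastocysts, 6 (from 3) for hatched blastocysts, 12 (from 7) for in vivo hatching and 6 (from 2) for the difference of hatching changes. With all 13 libraries in the fit each of these 4 counts was 0. With only the groups compared in the fit it was 5 for IVF against in vivo blastocysts and 1 for in vivo hatching, and without the filter on low counts it was 4 for the difference of hatching changes. With single libraries left out, the counts ranged from 1 to 8 for IVF against in vivo blastocysts, 0 to 5 for hatched blastocysts, 3 to 8 for in vivo hatching, 0 to 4 for the difference, 23 to 35 for IVF blastocysts against 4-cell embryos and 22 to 33 for hatched ones.

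With the replicate number as a block, 4 genes were called for IVF against in vivo blastocysts, 0 for IVF hatching, 26 for IVF blastocysts against 4-cell embryos and 27 for hatched ones. No paired analysis was possible because the unnumbered library leaves fewer than 2 shared numbers for hatched blastocysts, in vivo hatching and the difference of hatching changes. Scaling by total counts alone moved the median of all genes by -0.27 and -0.31 in the 4-cell comparisons, where 24 proteasome genes were called in each, and by -0.11 in the difference of hatching changes. DESeq2 gave PSMC5, PSMC6 and PSME1 no adjusted p in the 4-cell comparisons.

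Signs turned only where single libraries were left out and the change was small and not called: over these omissions PSMB5 ranged from -0.070 to 0.12 in IVF against in vivo blastocysts (below 0 without in vivo library 2 or IVF library 3). PSMB6 ranged from -0.11 to 0.42 between origins of hatched blastocysts (below 0 when in vivo library 2 or IVF library 2 was omitted) and from -0.030 to 0.16 in IVF hatching (below 0 when blastocyst library 2 or hatched library 2 was omitted). Where a group has 1 library left, it is assumed to vary like the others. Ratios of the summed core or cap level between groups were also taken from FPKM and from CPM with TMM factors. Of these alternatives 8 moved by more than the spread of the ratio in CPM. Depth limits PSMB8, PSMB9 and PSMB11, whose libraries held 0 to 35 counts.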

Other observations

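PSMC3IP, the recombination factor that the symbol rule also met (gene 100521397, chromosome 12, 20244243 to 20250151), had 31.3, 23.6 and 11.4 CPM in 4-cell embryos, 55.1, 46.4 and 62.2 CPM in IVF blastocysts and 42.7, 46.3 and 36.2 CPM in IVF hatched blastocysts. It rose against 4-cell embryos by 1.61 ± 0.35 (adjusted p = 0.00462) in IVF blastocysts, and the groups were apart. In vivo it had 106 and 67.6 CPM in blastocysts and 65.4 and 57.1 CPM in hatched blastocysts, and no comparison among blastocysts called it. Its annotated span shares 392 bases with MLX.

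Some proteasome genes lie together on chromosome 7. PSMB8 ends 1105 bases from TAP1 and lies 1540 bases from TAP2, and PSMB9 lies 143 bases from TAP1 on the other side. PSME1 and PSME2 are 3958 bases apart, and PSMB5 and PSMB11 are 7847 bases apart. In IVF blastocysts TAP1 had 87.7, 93.1 and 57.7 CPM beside 0.458, 0.697 and 0.220 CPM of PSMB8 and 0.306, 0.103 and 0.275 CPM of PSMB9. PSMB5 had 389, 333 and 443 CPM there and PSMB11 had 0 counts.

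Since the strand used in counting is not given, reads of overlapping genes cannot be told apart. Besides PSMC3IP, 10 proteasome genes overlap another annotated gene. PSMD10 shares 2670 bases with ATG4A, whose mean over all libraries was 129.97 CPM beside 144 CPM of PSMD10. PSME1 shares 88 bases with EMC9 (28.3 CPM beside 21.1 CPM), and PSMC5 shares 685 bases with FTSJ3 (72.9 CPM beside 298 CPM). For PSMA3, PSMA7, PSMC1, PSMD1, PSMD6, PSMD14 and PSMG2 the mean of the overlapping gene was at most 16.5 CPM.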
